A study of Mus musculus with 12 samples.

Results

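Zinc in T cells is buffered by metallothioneins and moved across membranes by 2 families of transporters, and 6 genes of this system were followed through the 12 samples of the series. They were the metallothioneins Mt1 and Mt2, the zinc-sensing transcription factor Mtf1, the zinc exporter Slc30a1 (ZnT1) and the zinc importers Slc39a6 (ZIP6) and Slc39a10 (ZIP10). The 6 genes were listed by name, chosen by their counts in these same samples with earlier results known, and are 6 of the 56691 mouse genes in the count table. All 6 passed the filter on low counts, as did 15138 genes in all. Because the values themselves had drawn attention to these genes, their levels and fold changes are given as a description and no p-value is attached to them.

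The samples were CD4+ T cells sorted by FACS from the spleens of Tg4 Nr4a3-Tocky Il10-GFP mice, whose transgenic T cell receptor recognises a myelin basic protein (MBP) peptide and whose Timer protein reports Nr4a3 activity. The sort kept live CD4+ cells negative for CD11b and CD8 and positive for both Timer Blue and Timer Red, so cells that had not switched on the reporter were not measured in any group. Every mouse received 4 mg/kg of [4Y] MBP peptide under the skin, then antibody into the peritoneum 24 h later, a second peptide dose of 0.4 mg/kg 30 min after the antibody, and was killed 12 h after that. The 4 groups of 3 mice differed in the antibody injected and, for the sort, in the fluorophore on the CD4 stain, which was a different one for each group. The fluorophore and the injected antibody therefore cannot be told apart. Isotype mice received a pool of rat IgG1 and rat IgG2a, anti-PD-L1 mice received 0.5 mg of clone MIH5, anti-Lag3 mice received clone C9B7W, and combination (CB) mice received anti-PD-L1 and anti-Lag3 pooled in equal parts. The dose of each antibody within the CB pool is not stated, so CB mice may have received less anti-PD-L1 than the anti-PD-L1 mice. There was no group without the second peptide dose, and age and sex, which the methods give only in general terms (young mice of both sexes), are not labelled per sample. Cells were sorted in batches of 4 samples, and the study describes a batch effect of the sort, but the labels do not say which samples shared a batch.

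Metallothioneins are small cysteine-rich proteins that bind zinc and copper and release zinc on oxidation. Free zinc is sensed by MTF1, which binds metal response elements in the promoters of metallothionein genes and of Slc30a1 and raises their transcription, so their transcripts are commonly used as a readout of available zinc. ZIP6 and ZIP10 are closely related importers at the cell surface, and zinc that enters a T cell after receptor engagement can modulate early receptor signalling.

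Metal response elements share a core written TGCACNC or TGCGCNC, and the letters near the starts of the metallothionein genes are shown because the results below turn on these genes. In the 250 bases before the start given by RefSeq, on either strand, 21.4% of 32851 promoters held at least 1 core and 1.26% held at least 3. Mt2 held 3, Mt1 and Slc30a1 held 1 each, and Mtf1 and both starts of Slc39a10 held 0. Slc39a6 was not searched. The RefSeq windows (GRCm38.p6) of Mt1 (chr8:94178839-94179081, plus strand) and of Mt2 (chr8:94172368-94172617, plus strand), which end before the first annotated start, read as follows with core matches in capitals.
Mt1: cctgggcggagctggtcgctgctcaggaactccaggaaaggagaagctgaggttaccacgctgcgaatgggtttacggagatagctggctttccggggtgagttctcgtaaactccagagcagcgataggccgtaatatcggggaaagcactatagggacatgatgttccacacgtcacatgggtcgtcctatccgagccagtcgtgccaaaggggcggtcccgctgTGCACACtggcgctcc
Mt2: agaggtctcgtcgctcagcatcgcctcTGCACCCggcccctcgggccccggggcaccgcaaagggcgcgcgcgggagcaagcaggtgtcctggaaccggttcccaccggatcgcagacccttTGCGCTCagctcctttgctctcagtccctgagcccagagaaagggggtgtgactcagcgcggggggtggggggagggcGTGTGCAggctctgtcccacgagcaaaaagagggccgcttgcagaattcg

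Both metallothionein genes have further annotated starts downstream of these windows. Mt1 has 3 starts spread over 159 bases and Mt2 has 2 starts 196 bases apart, and the sequencing, which reads the 3′ ends of transcripts, does not tell which start was used. Between its first and last start Mt1 held 4 more core matches, where 0.0472% of 135466 annotated transcripts held at least 4 in their first 159 bases. Mt2 held 3 more between its starts, where 0.409% of 134624 transcripts held at least 3 in their first 196 bases. The matches with 4 bases on either side are given next for Mt1 (4 sites, in order from chr8:94179087 to chr8:94179197), for Mt2 (3 sites, from chr8:94172672 to chr8:94172739) and for the single match of Slc30a1 (chr1:191906734-191906748). The capitals mark the core, which reads on the opposite strand where it begins with G. A match is a description of the letters and was not tested as a binding site.
Mt1 site 1: gctcTGCACTCcgcc
Mt1 site 2: aaagTGCGCTCggct
Mt1 site 3: tgctGGGTGCAaacc
Mt1 site 4: ccttTGCGCCCggac
Mt2 site 1: gggcGTGTGCAggcg
Mt2 site 2: gggcGCGTGCAtggt
Mt2 site 3: ctttTGCGCTCgacc
Slc30a1 site: ttccGAGTGCAaagc

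Depth allowed all 6 genes to be read in every sample. Total counts on genes ran from 16449370 to 22151025 per sample, and the members had between 81 reads (Slc30a1, anti-PD-L1 replicate 2) and 1915 reads (Mt1, anti-PD-L1 replicate 2). Levels are given as CPM, the count scaled to library size, after TMM scaling, which sets libraries of different depth and composition on 1 scale. Fold changes are on the log2 scale with the standard error (SE) from 1 edgeR fit over all genes and all 12 samples, and a gene was called when its adjusted p fell below 0.05. The 3 comparisons with isotype share the isotype samples, so their values are set side by side and not counted as independent. T cell markers were high in every sample, with 2704 to 3297 CPM summed over 9 genes. These are bulk samples, so fewer cells of a type and less RNA per cell cannot be told apart.

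**Figure D1:**
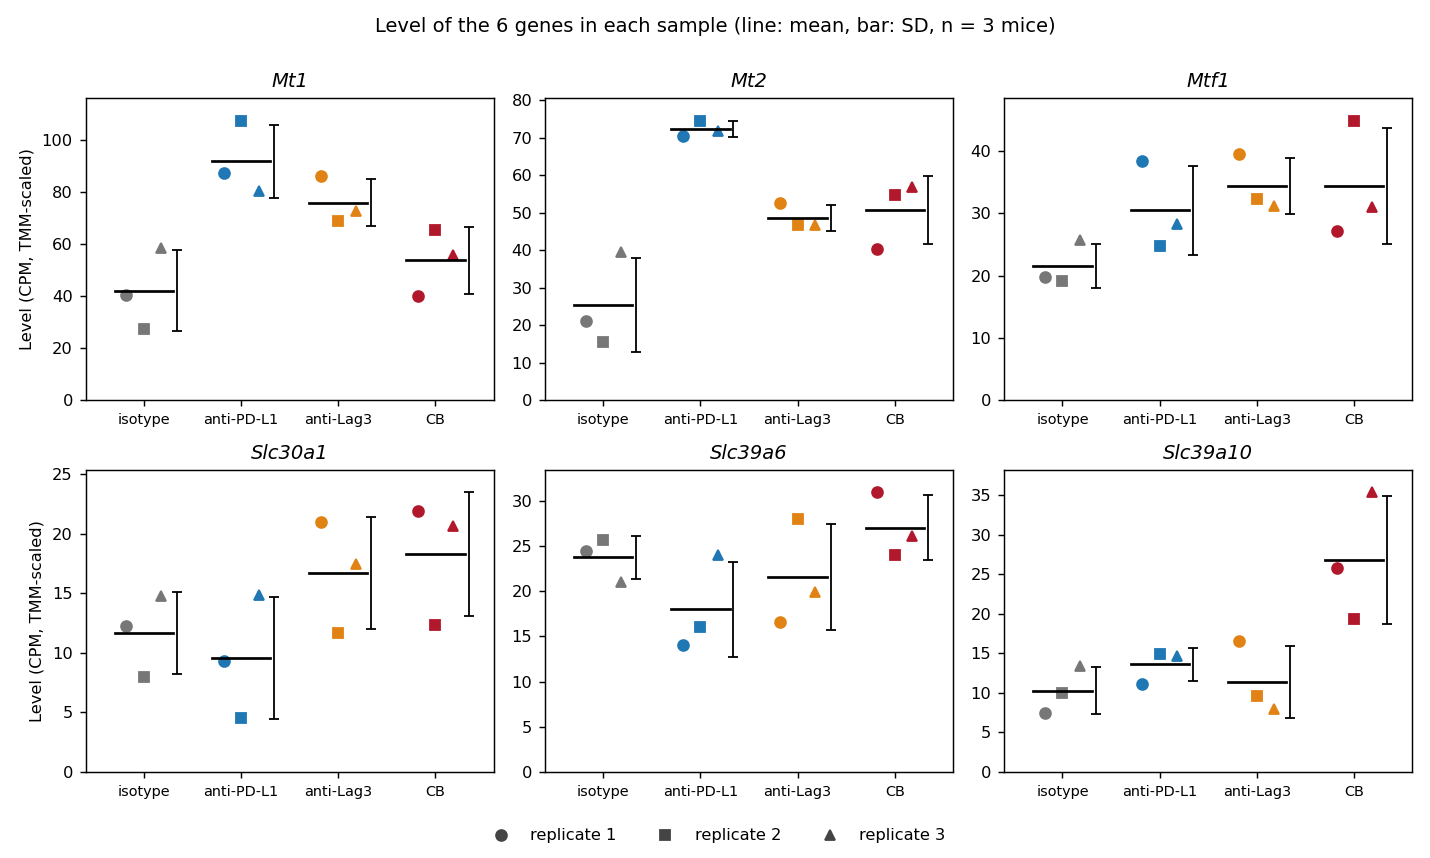
Level (CPM, TMM-scaled, linear axis from 0) of each of the 6 genes in the 12 samples, by antibody group, with the mean as a line and the SD as a bar (n = 3 mice). Mt1 and Mt2 were highest in anti-PD-L1 (means of 91.7 and 72.3 CPM) and lowest in isotype, and Slc39a10 stood at 19.3 CPM or above in CB and at 16.6 CPM or below in the other groups.

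Mt1 and Mt2, the ubiquitous metallothioneins, were higher in mice that received anti-PD-L1 alone than in isotype mice, and both were lower in CB than in anti-PD-L1. Mt1 (ENSMUSG00000031765, GRCm38 chr8:94179082-94180327, plus strand) measured 40.5, 27.3 and 58.3 CPM in the isotype replicates and 87.4, 107 and 80.4 CPM in anti-PD-L1. It measured 85.9, 68.7 and 72.9 CPM in anti-Lag3 and 40.1, 65.5 and 55.6 CPM in CB. Each sample given a single antibody lay above each isotype and each CB sample, while the isotype and CB samples overlapped. How many of all genes share this joint pattern was not counted, and shares for pairs of groups are given below. The order of means was isotype (42.0 ± 15.6 CPM, SD, n = 3), CB (53.7 ± 12.8 CPM), anti-Lag3 (75.8 ± 8.99 CPM) and anti-PD-L1 (91.7 ± 14.0 CPM). Of the neighbours in that order, only CB and anti-Lag3 had samples that did not overlap.

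Against isotype, the fitted log2 fold change of Mt1 was 1.12 in anti-PD-L1 (SE 0.21), which is a fold of 2.18. It was 0.85 in anti-Lag3 (SE 0.21) and 0.35 in CB (SE 0.21), where the 95% interval ran from -0.08 to 0.78. Within the antibody groups Mt1 was lower in CB than in anti-PD-L1, with a log2 fold change of -0.77 (SE 0.21), and lower in CB than in anti-Lag3, with -0.50 (SE 0.21).

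Mt2 (ENSMUSG00000031762, chr8:94172664-94173568, plus strand) lies 5513 bases upstream of Mt1. It measured 21.1, 15.5 and 39.6 CPM in isotype and 70.6, 74.5 and 71.8 CPM in anti-PD-L1, where the replicates lay closest together. It measured 52.6, 46.7 and 46.6 CPM in anti-Lag3 and 40.3, 54.8 and 56.8 CPM in CB. All 9 samples that received a blocking antibody lay above all 3 isotype samples, although CB replicate 1 (40.3 CPM) and isotype replicate 3 (39.6 CPM) lay close together. The means ran from isotype (25.4 ± 12.6 CPM) through anti-Lag3 (48.6 ± 3.47 CPM) and CB (50.6 ± 8.98 CPM), which overlapped, to anti-PD-L1 (72.3 ± 2.04 CPM), whose samples stood above all others. For these patterns over several groups, too, the share of all genes was not counted.

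The log2 fold change of Mt2 against isotype was 1.51 in anti-PD-L1 (SE 0.23), a fold of 2.84, and 0.99 in CB (SE 0.23), a fold of 1.99. In anti-Lag3 it was 0.93 (SE 0.23). Mt2 differed little between CB and anti-Lag3, with a log2 fold change of 0.06 and a 95% interval of -0.41 to 0.53, and the direction turned without CB replicate 3 (-0.03). CB against anti-PD-L1 gave -0.51 (SE 0.23).

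Between anti-PD-L1 and isotype, Mt1 and Mt2 were 2 of 5 genes that edgeR called among all genes tested, which is 0.0330%. All 5 were higher. DESeq2 called 56 genes, both metallothioneins among them. Without isotype replicate 1 the log2 fold changes were 1.10 for Mt1 and 1.39 for Mt2, without isotype replicate 2 they were 0.89 and 1.25, and in neither case was a gene of the pair called. The call of Mt1 was also lost without anti-PD-L1 replicate 1 (1.16) or 2 (1.00), anti-Lag3 replicate 2 or 3 (1.12 each) and CB replicate 2 (1.12). Without isotype replicate 3, the isotype sample with the most metallothionein reads, they were 1.43 and 1.98 and both were called. The samples of the pair also did not overlap between these groups, which was so for 5.34% of genes in the higher direction. Between anti-Lag3 and isotype no gene was called by edgeR (0%), 788 genes had an unadjusted p under 0.05, and DESeq2 called 9. In that comparison 5.25% of genes had higher samples that did not overlap, and Mt1, Mt2 and Mtf1 were among them. Without isotype replicate 3 the log2 fold change of Mt2 in that comparison was 1.40 and it was called.

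Markers of myeloid cells, whose CD11b+ members the sort gate left out, stood apart in anti-PD-L1 only. The 8 myeloid markers summed to 14.5 to 22.8 CPM in anti-PD-L1, above isotype (5.77 to 12.6 CPM), anti-Lag3 (6.34 to 11.9 CPM) and CB (4.45 to 11.8 CPM). Lyz2, the most abundant of them, measured 6.23 to 9.33 CPM in anti-PD-L1 and 0.106 to 2.37 CPM in isotype, and S100a8 and S100a9 were also higher without overlap. Csf1r, Itgam, Adgre1 and Cd68 overlapped between these groups, and Cd14 had no read in any sample. In anti-Lag3 and CB the summed myeloid markers overlapped isotype, while Mt2 in both groups and Mt1 in anti-Lag3 lay above isotype without overlap. Erythroid markers were lower in anti-PD-L1 (171 to 217 CPM) than in isotype (241 to 451 CPM), as was the pair of CD8 genes (24.6 to 30.5 CPM against 40.9 to 45.3 CPM). The CD8 sum followed Cd8b1, while Cd8a overlapped between anti-PD-L1 and isotype. The part of these markers in the anti-PD-L1 result was not tested.

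Anti-Lag3 samples lay above isotype samples for both genes, and CB samples lay below anti-PD-L1 samples for both genes. Neither gene was called in these comparisons. As the dose of anti-PD-L1 may differ between CB and anti-PD-L1 mice, the addition of anti-Lag3 and a change of that dose cannot be told apart in the latter. Of the 15138 genes, 27 showed this pattern without overlap (0.178%). The interaction, which is CB minus anti-PD-L1 minus anti-Lag3 plus isotype on the log2 scale, was -1.62 for Mt1 (SE 0.30) and -1.45 for Mt2 (SE 0.32). No gene was called for the interaction by edgeR (0%), 898 genes had an unadjusted p under 0.05, and DESeq2 called 5, of which Mt1 was 1. Without isotype replicate 3 the interaction was -1.93 for Mt1 and -1.92 for Mt2 and both were called.

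Mt1 and Mt2 did not move in a fixed proportion. The ratio of Mt2 reads to Mt1 reads was 0.522, 0.566 and 0.679 in isotype and 0.612, 0.679 and 0.640 in anti-Lag3. It was 0.807, 0.694 and 0.892 in anti-PD-L1 and 1.01, 0.836 and 1.02 in CB. All 6 samples that received anti-PD-L1, alone or in CB, had a higher ratio than all 6 that did not, and the group means were 0.589 ± 0.0810 (SD, n = 3), 0.644 ± 0.0337, 0.798 ± 0.0996 and 0.955 ± 0.103 in the same order. Anti-PD-L1 replicate 2 (0.694) lay close to anti-Lag3 replicate 2 and isotype replicate 3 (0.679 each). The ratio was chosen after the values were seen and carries no test. A ratio within a sample does not depend on library scaling, but it also does not say which of the genes changed.

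**Figure D2:**
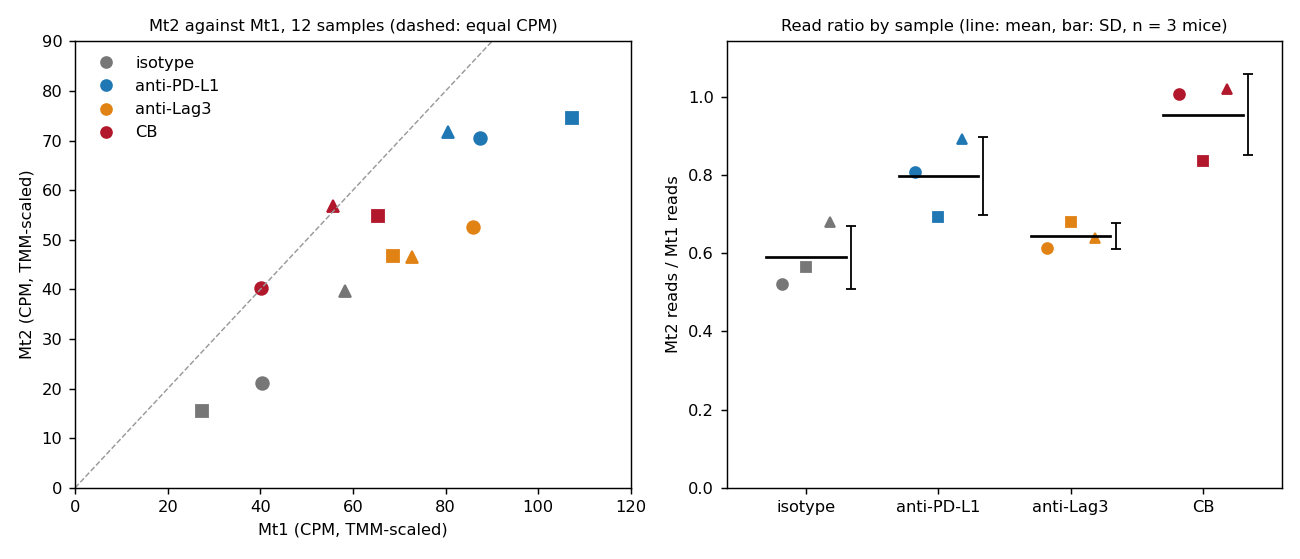
Left, Mt2 against Mt1 in CPM for the 12 samples, coloured by group, with a dashed line where they are equal. Right, Mt2 reads divided by Mt1 reads in each sample, with the group mean and SD (n = 3 mice): the 6 samples with anti-PD-L1 lie between 0.694 and 1.02, above the 6 without it, between 0.522 and 0.679.

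The metallothionein cluster holds 2 more genes on the same strand. Mt3, a form best known from brain, lies 18517 bases upstream of Mt2 and had 54 reads in all, at most 21 in a sample. Mt4, known from stratified epithelium, was listed at 0 in every sample, which allows up to 3 reads per library by counting error alone. The transcripts of Mt1 and Mt2 are alike but could be told apart at their ends: none of the 50-base stretches in the last 300 bases of any member's coding transcripts occurred in a transcript of another gene. The predicted gene Gm45774, on the strand opposite Mt2, had 0 reads.

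Mtf1 (ENSMUSG00000028890, chr4:124802104-124849800, plus strand), which encodes the zinc sensor that drives metallothionein transcription, was lowest in isotype. It measured 19.8, 19.2 and 25.7 CPM in isotype, and 38.4, 24.7 and 28.3 CPM in anti-PD-L1. It measured 39.5, 32.3 and 31.1 CPM in anti-Lag3 and 27.1, 44.9 and 31.0 CPM in CB. The anti-Lag3 and CB samples lay above all isotype samples, and 1 anti-PD-L1 sample fell within the isotype range. None of the neighbouring groups in the order isotype (21.5 ± 3.59 CPM), anti-PD-L1 (30.5 ± 7.13 CPM), anti-Lag3 (34.3 ± 4.51 CPM) and CB (34.3 ± 9.34 CPM) was free of overlap.

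The log2 fold change of Mtf1 against isotype was 0.50 in anti-PD-L1 (SE 0.24), 0.67 in anti-Lag3 (SE 0.24) and 0.67 in CB (SE 0.24), and it was called in none of these comparisons. The last 721 bases of Mtf1 overlap 1110065P20Rik on the opposite strand, which had 4313 reads where Mtf1 had 7054. The strand setting of the counting is not given in the sources used here, so reads of the pair may not be told apart. The log2 fold change of 1110065P20Rik between CB and isotype was 0.52 (edgeR, adjusted p = 0.493).

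Slc30a1 (ENSMUSG00000037434, chr1:191906767-191913247, plus strand), the zinc exporter of the plasma membrane and a target of MTF1, had group means ordered unlike those of either metallothionein. It measured 12.3, 7.98 and 14.8 CPM in isotype and 9.35, 4.54 and 14.8 CPM in anti-PD-L1. It measured 21.0, 11.7 and 17.4 CPM in anti-Lag3 and 21.9, 12.3 and 20.7 CPM in CB. All 4 groups overlapped, and replicate 2 was the lowest of its group each time. The mean was lowest in anti-PD-L1 (9.58 ± 5.15 CPM), the group in which Mt1 and Mt2 were highest, followed by isotype (11.7 ± 3.46 CPM), anti-Lag3 (16.7 ± 4.70 CPM) and CB (18.3 ± 5.22 CPM).

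The log2 fold change of Slc30a1 was -0.29 between anti-PD-L1 and isotype, with a 95% interval of -1.07 to 0.50, and its direction turned without anti-PD-L1 replicate 2, to 0.05. It was 0.51 in anti-Lag3 (SE 0.38) and 0.64 in CB (SE 0.38), and 0.93 between CB and anti-PD-L1 (SE 0.38). The interval against isotype in anti-PD-L1 ended below the fold changes of Mt1 (1.12) and Mt2 (1.51) in the same samples. The gene on its opposite strand, 1700034H15Rik, overlaps it by 761 bases away from its 3′ end and had 59 reads in all.

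**Figure D3:**
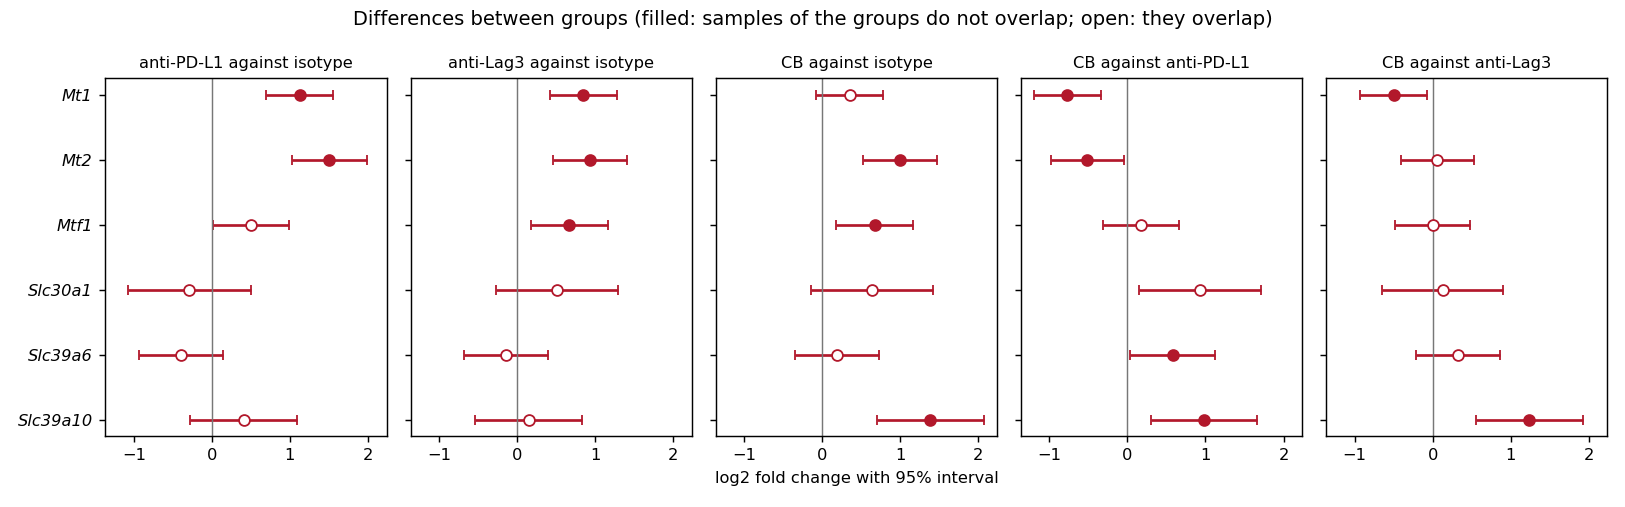
Log2 fold change (horizontal axis) of each of the 6 genes in 5 comparisons, with the 95% interval of the edgeR fit; filled points mark comparisons in which the samples of the groups do not overlap. Mt1 and Mt2 lie right of 0 in both single-antibody groups and left of 0 for CB against anti-PD-L1, and Slc39a10 lies right of 0, with filled points, in all 3 comparisons that involve CB.

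Slc39a10 (ENSMUSG00000025986, chr1:46807544-46892852, minus strand), which encodes the importer ZIP10, was higher in CB than in each other group. It measured 7.45, 9.94 and 13.4 CPM in isotype and 11.1, 15.0 and 14.7 CPM in anti-PD-L1. It measured 16.6, 9.60 and 7.93 CPM in anti-Lag3 and 25.8, 19.3 and 35.4 CPM in CB. The 3 CB samples stood above the other 9 samples, which overlapped among themselves. The share of all genes with CB above the 9 others was not counted, and shares for pairs of groups are given below. The group means were 10.3 ± 2.99 CPM in isotype, 11.4 ± 4.60 CPM in anti-Lag3, 13.6 ± 2.12 CPM in anti-PD-L1 and 26.8 ± 8.07 CPM in CB.

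Between CB and isotype the log2 fold change of Slc39a10 was 1.39 (SE 0.34), a fold of 2.61. It was 0.98 between CB and anti-PD-L1 (SE 0.33) and 1.24 between CB and anti-Lag3 (SE 0.33). Against isotype the single antibodies gave 0.41 (SE 0.33) for anti-PD-L1 and 0.15 (SE 0.33) for anti-Lag3, which turned to -0.23 without anti-Lag3 replicate 1. The interaction was 0.83, with a 95% interval of -0.13 to 1.79, an interval that holds 0. Without anti-Lag3 replicate 1 the fold change against anti-Lag3 was 1.61 and Slc39a10 was called. The overlapping gene Gm28151 on the same strand had 128 reads, against 3673 of Slc39a10.

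Slc39a6 (ENSMUSG00000024270, chr18:24579881-24603817, minus strand), which encodes the related importer ZIP6, varied less. It measured 24.5, 25.7 and 21.1 CPM in isotype and 14.1, 16.0 and 24.0 CPM in anti-PD-L1. It measured 16.6, 28.0 and 20.0 CPM in anti-Lag3 and 31.0, 24.0 and 26.2 CPM in CB. The lowest CB sample lay just above the highest anti-PD-L1 sample, and every other pair of groups overlapped.

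The means of Slc39a6 were 18.0 ± 5.26 CPM in anti-PD-L1, 21.5 ± 5.87 CPM in anti-Lag3, 23.7 ± 2.40 CPM in isotype and 27.0 ± 3.57 CPM in CB. Its log2 fold change was -0.40 (SE 0.26) in anti-PD-L1, -0.14 (SE 0.26) in anti-Lag3 and 0.19 (SE 0.26) in CB against isotype, and 0.58 (SE 0.26) between CB and anti-PD-L1. The direction in anti-Lag3 turned without anti-Lag3 replicate 1, to 0.01. The first 952 bases of the gene overlap Elp2 on the opposite strand, which had 23915 reads against 5276 of Slc39a6, and the fold change of Elp2 between CB and isotype was 0.21 on the log2 scale (edgeR, adjusted p = 0.50).

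Between CB and isotype all 6 genes had a positive log2 fold change, with a median of 0.66. The 6 were chosen with these values known, so their shared direction is a description only. Of the 6, 2 were called, Mt2 and Slc39a10. Of all genes tested, 4.29% were called in that comparison, 2.33% as higher. The call of Mt2 was lost without isotype replicate 1 (0.87), isotype replicate 2 (0.74) or CB replicate 3 (0.90), and that of Slc39a10 without the same samples (1.20, 1.36 and 1.14). Samples of Mt2, Mtf1 and Slc39a10 did not overlap with isotype, which was so for 10.4% of all genes in the higher direction. DESeq2 called both genes against a change of 0 and neither against a change of 0.2. Several marker lists also shifted between CB and isotype without overlap of samples. The 9 T cell markers summed to 2704 to 2852 CPM in CB and 3189 to 3297 CPM in isotype, the 6 erythroid markers to 150 to 198 CPM against 241 to 451 CPM, the 4 NK cell markers to 10.3 to 17.2 CPM against 23.0 to 35.9 CPM, and the pair of CD8 genes to 25.0 to 33.2 CPM against 40.9 to 45.3 CPM. Of the 9 T cell markers, Thy1, Cd4, Cd3e, Cd3d and Cd5 were lower in CB without overlap, and Cd3g, Cd2, Cd28 and Lck overlapped isotype. The paper lists Cd4 among the genes lowered with CB. The NK cell sum followed Gzma (6.54 to 11.3 CPM in CB, 17.9 to 32.8 CPM in isotype). Klrb1c went the other way without overlap, and Ncr1 and Klrd1 overlapped. The CD8 sum followed Cd8b1, while Cd8a overlapped between these groups. The part of these markers in the result was not tested.

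CB against the single antibodies gave no call among the 6 genes, where 0.370% of genes were called with anti-PD-L1 as the reference and 0.694% with anti-Lag3. Slc39a6 and Slc39a10 were higher in CB than in anti-PD-L1 without overlap (6.94% of genes), and Mt1 and Mt2 were lower without overlap (5.75%). Against anti-Lag3, Slc39a10 was higher without overlap (7.68% of genes) and Mt1 was lower (7.09%). Between the single antibodies no gene was called by edgeR (0%), 710 had an unadjusted p under 0.05, DESeq2 called 10, and Mt2 alone of the 6 was higher in anti-PD-L1 without overlap, as were 4.01% of genes.

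The other zinc transporters and metallothioneins were examined as a list of 24 genes, of which 19 passed the filter. edgeR called 0 of the 19 in any of the 7 comparisons. Between CB and isotype, 1 of them had an unadjusted p under 0.05, as did 2256 of all 15138 genes. That gene was Slc39a1 (ZIP1), an importer of the plasma membrane, with a mean of 40.3 CPM in CB and 25.9 CPM in isotype and a log2 fold change of 0.64 (SE 0.24, edgeR adjusted p = 0.165). Its samples did not overlap between these groups. Among the 19 genes 10 lay above 0 and 9 below, with a median of 0.06 where all genes tested had a median of 0.

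Of these genes, 13 reached a mean count of 30, and their log2 fold changes between CB and isotype ran from -0.49 (Slc39a4, SE 0.55) to 0.64. The zinc exporters that load the secretory pathway and vesicles were Slc30a4 (0.37, SE 0.65), Slc30a5 (0.12, SE 0.28), Slc30a6 (-0.02, SE 0.32) and Slc30a7 (0.07, SE 0.32). Slc30a9, whose product is known from mitochondria, gave -0.02 (SE 0.28). The importers of the ZIP family other than Slc39a1 and Slc39a4 were Slc39a3 (-0.20, SE 0.34), Slc39a8 (-0.30, SE 0.49), Slc39a9 (-0.37, SE 0.20), Slc39a11 (0.27, SE 0.33), Slc39a13 (0.59, SE 0.74) and Slc39a14 (0.06, SE 0.71). Slc39a9, the importer of the Golgi and cell surface, was lower than isotype without overlap of samples in anti-PD-L1, anti-Lag3 and CB, at means of 32.8, 34.9 and 35.4 CPM against 45.8 CPM, though it was not called. Samples were lower without overlap for 6.46%, 4.81% and 9.62% of all genes in these comparisons. In both of the other comparisons with isotype the 13 genes had medians of -0.20 (anti-PD-L1) and -0.07 (anti-Lag3). Mt4, Slc30a8, Slc39a5, Slc39a7 and Slc39a12 were listed at 0 in every sample. A listed 0 does not show that these genes were silent, as the assignment of reads to them was not tested.

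**Figure D4:**
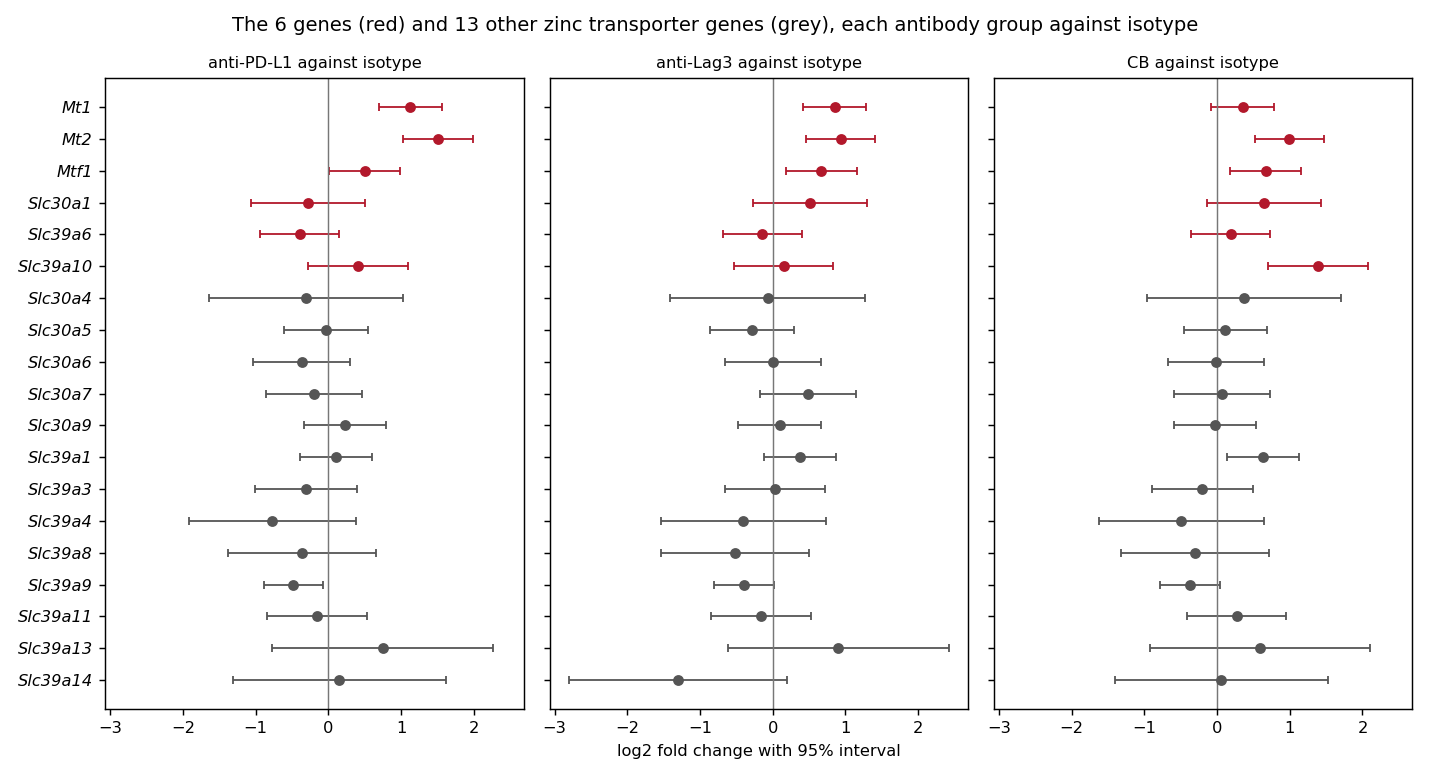
Log2 fold change with 95% interval of the 6 genes (red) and of 13 other zinc transporter genes whose mean count reached 30 (grey), for each antibody group against isotype. The grey intervals are wide for Slc30a4, Slc39a4, Slc39a13 and Slc39a14, which had mean counts of 67.8 to 118, and none of the 13 was called.

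Other lists tied to metallothionein regulation were counted in the same fit between CB and isotype, where 4.29% of all genes were called. In that comparison 2256 of all 15138 genes had an unadjusted p under 0.05. Of 5 genes linked to MTF1 besides the members (Gclc, Selenow, Ndrg1, Csrp1 and Atp7b), edgeR called 0, with 3 at an unadjusted p under 0.05 and a median of -0.40. Those 3 were Selenow, Ndrg1 and Csrp1, each with a log2 fold change below 0. Selenow and Ndrg1 were lower than isotype without overlap of samples (9.62% of genes). The lowest adjusted p was that of Csrp1, a LIM-domain protein, with a log2 fold change of -0.63 (SE 0.19, edgeR adjusted p = 0.0579). Of 18 copper and iron genes 1 rose, the transferrin receptor Tfrc, which takes up iron, with a log2 fold change of 0.76 (SE 0.20, edgeR adjusted p = 0.0292). The call of Tfrc was lost without isotype replicate 1 (0.62) or 2 (0.71) and without CB replicate 2 (0.77) or 3 (0.56). The share of 1 in 18 is near that of all genes. The other copper genes included the importer Slc31a1 at 0.38 (SE 0.26) and the exporter Atp7a at 0.08 (SE 0.55), neither of which was called.

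Metallothioneins also respond to oxidative stress and to glucocorticoids. Of 15 NRF2 target genes 13 were tested and 1 rose, Pgd, an enzyme of the pentose phosphate pathway, with a log2 fold change of 0.52 (SE 0.12, edgeR adjusted p = 0.0081). The share of 1 in 13 is near the 4.29% of all genes called, and the median of the 13 was -0.01. Of 11 glucocorticoid-induced genes 10 were tested and 0 were called. An unadjusted p under 0.05 was found for 0 of them, where 2256 of all 15138 genes had one. Of the 10, 9 had a log2 fold change below 0, and the median of the 10 was -0.30. Among them Tsc22d3 gave -0.30 (SE 0.18) and Fkbp5 gave -0.12 (SE 0.12). In anti-PD-L1 against isotype, where 0.0330% of all genes were called, edgeR called 0 genes of these 4 lists, so the count says nothing about them. There 3 of the 13 NRF2 targets had an unadjusted p under 0.05, as did 1187 of all 15138 genes. Pgd (0.41, SE 0.12) and Prdx1 (0.29, SE 0.088) were higher than isotype without overlap of samples (5.34% of genes). A further 1 was lower without overlap (6.46% of genes). Of the 13, 8 had a log2 fold change below 0, with a median of -0.02. Of the 10 glucocorticoid-induced genes, 2 had an unadjusted p under 0.05, and 1 was higher and 2 were lower without overlap. Of the 5 genes linked to MTF1, 0 had an unadjusted p under 0.05 and 4 had a log2 fold change below 0, with a median of -0.19.

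Likeness of pattern was measured as the correlation of log2 CPM over the 12 samples with each of 10447 genes whose mean count reached 30. Points of a group share its treatment, and sort batches are not labelled, so the correlations are a description. For Mt1 the gene most alike was Mt2 (Pearson 0.89, Spearman 0.78), followed by Ss18l2 (0.88, 0.69) and Dpf2 (0.86, 0.90). For Mt2 it was Zfp326 (0.90, 0.66) and Bysl (0.90, 0.84), with Mt1 next.

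For the other members the 3 genes most alike lay outside the listed zinc genes. Cebpz (Pearson 0.93, Spearman 0.87), Mrpl20 (0.92, 0.92) and Chd1 (0.91, 0.83) were most like Slc39a10. Slc30a1 was followed by Selenoo (0.93, 0.82), Gm5844 (0.87, 0.79) and Ube2cbp (0.87, 0.80), and Slc39a6 by Ogfod1 (0.91, 0.79), Klhdc8b (0.87, 0.69) and Zfp511 (0.84, 0.76). Mtf1 was most like 1810022K09Rik (0.84, 0.79), Gjb2 (0.83, 0.80) and Nr1d2 (0.82, 0.83).

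Between members, Mtf1 correlated with Mt2 at 0.68 (Spearman 0.43) and with Mt1 at 0.60 (Spearman 0.47). Slc39a6 ran opposite to Mt1, at -0.69 (Spearman -0.80), which placed it at position 10393 of the 10447 genes in likeness to Mt1. Slc30a1 correlated with Mt1 at -0.17 and with Mt2 at 0.02, and Slc39a10 correlated with Mt2 at 0.41 and with Mt1 at 0.05.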

How the data were processed

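RNA from sorted splenic CD4+ T cells of 12 mice (3 per group) was made into 3′ mRNA libraries, with 18 PCR cycles and no molecular identifiers mentioned. Per the labels the authors used cutadapt 1.18, STAR 2.6.1a, featureCounts 1.6.4 and R 4.0 with DESeq2 on GRCm38; the annotation release and the strand setting are not given in the sources used here. The authors deposited raw counts for 56691 genes and 114 spike-in rows, and log2 (rlog) values for 10492 rows, which served only for an alternative. Unused sample columns number 0. Spike-ins, 0.719% to 1.29% of counts, were left out.

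Here, symbols and positions came from GENCODE vM21 (GRCm38), which held 52073 of the genes. Genes with at least 30 reads in sum were fitted with edgeR 4.0.16 (limma 3.58.1, R 4.3.3): TMM, 4 group means, no covariate, quasi-likelihood tests, Benjamini-Hochberg adjustment over all genes, threshold 0.05. Depth was 16449370 to 22151025 counts per sample (median 19176439). Intervals of fold changes come from the edgeR fit and include the spread between mice, while floors of 3 reads cover counting error only. Log2 CPM used a prior count of 2. The fit was tested on simulated data: for CB against isotype, over 14286 genes, 33% of 200 changed genes and 58% of those changed by 4-fold were recovered.

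The 6 members, the gene lists, the markers and the rule for named genes (members, called genes of each list up to 5, other zinc genes of mean count at least 30, and 3 most alike genes per member) were chosen with earlier results of these data known. Selenow, Ndrg1, Atp7b, Slc31a1, Atp7a, Tsc22d3, Fkbp5, Prdx1, 1110065P20Rik, Elp2 and the other overlapping genes were named beyond that rule after values were seen. The labels call the samples biological replicate mice. Alternatives were DESeq2 1.42.0, its size factors in edgeR, other filters, a block for replicate number, a fit of the compared groups alone, and each sample left out.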

Additional observations from a re-analysis of the deposited data

Results flagged for a closer look

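For Mt1 and for Mt2 each anti-Lag3 sample lay above each isotype sample, while each CB sample lay below each anti-PD-L1 sample. The interaction was -1.62 for Mt1 (SE 0.30) and -1.45 for Mt2 (SE 0.32) on the log2 scale. In the edgeR fit neither gene was called for the interaction, for anti-Lag3 against isotype or for CB against anti-PD-L1, and no test of these genes alone is given because they were chosen with the values known. Both were called for the interaction without the filter on low counts, with the replicate number as a block and without isotype replicate 3 (-1.93 for Mt1 and -1.92 for Mt2), and DESeq2 called Mt1. The dose of each antibody within CB is not stated, so a lower dose of anti-PD-L1 and the addition of anti-Lag3 cannot be told apart in CB against anti-PD-L1.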

How the results depend on the processing

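Of the members' fold changes under the alternatives, 830 moved by less than the spread between replicates and 4 by more, all of them Mt2 without isotype replicate 3. Calls depended more on the settings. DESeq2 against a change of 0.2 called 0 of the 6 members between CB and isotype and 1 (Mt2) between anti-PD-L1 and isotype, where a fit of only the groups compared also called 1 (Mt2). Without the filter on low counts 2 members were called between anti-Lag3 and isotype (Mt1 and Mt2), 1 between CB and anti-PD-L1 (Mt1), 1 between CB and anti-Lag3 (Slc39a10) and 2 for the interaction. DESeq2 against 0 called 1 between CB and anti-Lag3 (Slc39a10) and 1 for the interaction (Mt1). With each sample left out, the members called numbered 0 to 2 for CB against isotype, 0 to 2 for anti-PD-L1 against isotype, 0 to 1 for anti-Lag3 against isotype, 0 to 1 for CB against anti-Lag3 and 0 to 2 for the interaction. The cause was not tested.

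The replicate numbers were not taken to pair the samples in the main fit. The deviations of same-numbered samples correlated at -0.061 to 0.125 over 18 pairs, 2 of them over 0.1. These correlations were positive for numbers 1 and 3 in every pair of groups. For number 2 only that between anti-Lag3 and CB was positive. Own numbers gave the best match in 21 of 36 cases, more often than random matching would give. The methods describe sorts in batches of 4 with a different CD4 fluorophore per group, so a batch may hold 1 sample of each group. Whether same-numbered samples shared a batch was not tested. With the replicate block edgeR called 843 genes between CB and isotype (649 without), 23 (5) between anti-PD-L1 and isotype, 9 (0) between anti-Lag3 and isotype, 137 (56) between CB and anti-PD-L1, 208 (105) between CB and anti-Lag3 and 4 (0) for the interaction; DESeq2 called 918, 56, 9, 178, 280 and 5. With the block, 1 member was called between anti-Lag3 and isotype (Mt2), 1 between CB and anti-PD-L1 (Mt1) and 2 for the interaction (Mt1 and Mt2).

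For the lists between CB and isotype, genes linked to MTF1 called numbered 1 without the filter, with DESeq2 and with the block, and 0 to 1 with a sample left out. Copper and iron genes called numbered 2 without the gene of most counts, 3 without the filter, 2 with DESeq2, 4 with the block, 3 with only the groups compared and 0 to 2 with a sample left out. NRF2 targets called numbered 0 with DESeq2 against 0.2. The median likeness was 0.88 by Pearson and 0.794 by Spearman. With a sample left out, the log2 fold change between CB and isotype changed sign for Slc30a4 (-0.047 to 1.85), Slc30a6 (-0.19 to 0.11), Slc30a7 (-0.16 to 0.37), Slc30a9 (-0.18 to 0.20), Slc39a4 (-0.92 to 0.037), Slc39a8 (-0.54 to 0.093) and Slc39a14 (-0.12 to 0.30), none of them called. With 3 mice a group, 58% of simulated 4-fold changes were recovered. The changed genes were drawn at random from all genes with at least 30 reads in sum. The share at the counts of the members was not measured, and smaller differences among them may be missed.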
